A study of Arabidopsis thaliana with 20 samples.

Results

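Arabidopsis leaves infiltrated with PEI-SWNTs were compared with leaves infiltrated with SWNTs. Single walled carbon nanotubes (SWNTs) are used to carry nucleic acids into plant cells, and PEI-SWNTs carry a coating of polyethyleneimine, a polymer of positively charged amines that binds DNA. The 10 samples of these 2 groups, of 20 in the whole series, were taken by their labels, 5 PEI-SWNTs samples and 5 SWNTs samples. Both groups were wild-type Columbia-0 plants, 6 weeks old. Their leaves received about 40 µL from a needleless syringe, at a nanotube concentration of 50 ng/µL. The study measured that concentration by absorbance. It reports the mass of polymer per mass of nanotube separately, from elemental analysis. Leaves were collected 48 h later, with 4 leaves from different plants in each replicate. The PEI-SWNTs were loaded with plasmid DNA that encodes green fluorescent protein, and the SWNTs with single-stranded RNA directed at that protein, which has no target in Arabidopsis. The nanotubes differed as well, since the SWNTs were pristine and the PEI-SWNTs were made from carboxylated tubes. Tube, polymer and cargo therefore changed together, and their parts in any difference between these samples cannot be told apart. The study followed marker genes by RT-qPCR in separate infiltrations. There, PEI-SWNTs without DNA gave expression very similar to DNA-loaded ones, and carboxylated tubes gave no significant change. It also reports clearer signs of toxicity with free polymer than with PEI-SWNTs. The other 10 samples, 5 infiltrated with water and 5 from non-infiltrated leaves, entered the same model and are used below as a separate comparison that shares no sample with the first.

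RNA was poly-A selected and sequenced, and the values analysed are read counts per gene. PEI-SWNTs samples held 13387714 to 21943422 counts and SWNTs samples 15248137 to 24471418, so the groups overlapped in depth. Of 37336 genes in the table, 16288 had an average RPKM (reads per kilobase of gene length and depth) of at least 1 and were tested. Plastid transcripts took 3.33% to 4.34% of the counts in PEI-SWNTs samples and 4.50% to 5.91% in SWNTs samples. PEI-SWNTs replicate 5 and SWNTs replicate 1 lay farthest from the other samples of their own groups, and SWNTs replicates 3 and 4 lay closest together but differed by more than counting noise, so all 10 were kept. The leaf label was checked against marker genes. All 4 mesophyll markers were tested, with summed levels of 16462.2 to 22214.4 CPM (counts scaled to a common library depth of 1e+06) in PEI-SWNTs samples and 17911.5 to 19255.1 CPM in SWNTs samples, whereas 0 of 5 root markers passed the expression filter.

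Plants sense microbes and damage through receptor kinases at the cell surface and through receptors inside the cell. The EDS1, PAD4 and SAG101 proteins relay part of this signal to the synthesis of salicylic acid, a hormone that turns on pathogenesis-related (PR) genes through the co-activator NPR1. Jasmonate, another hormone, controls defence against chewing insects, and salicylic acid and jasmonate outputs often oppose each other. Aliphatic glucosinolates and endoplasmic reticulum bodies (ER bodies) are stores of Brassicaceae that are used against herbivores.

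The difference between both nanotube treatments was broad. In PEI-SWNTs leaves, 621 genes were higher and 420 lower than in SWNTs leaves by at least 2-fold at an adjusted p under 0.05 in edgeR's quasi-likelihood test (3.81% and 2.58% of the genes tested, 6.39% in both directions). With no fold minimum, 3638 genes were higher and 3087 lower (22.3% and 19.0% of the genes tested, 41.3% in both directions). The median log2 fold change over all genes was 0.004, a value that the scaling sets near 0, so the changes are relative to the bulk of the genes. The changes upward were the larger ones, since 187 of the 621 higher genes and 47 of the 420 lower genes differed at least 4-fold, and 53 and 2 differed at least 8-fold. In 588 of the 621 higher genes every PEI-SWNTs sample lay above every SWNTs sample, and in 362 of the 420 lower genes every one lay below (16.5% and 12.5% of all genes tested were separated in these ways). The higher genes took 4.07% to 5.33% of all counts in PEI-SWNTs samples and 1.26% to 1.96% in SWNTs samples. The lower genes took 0.709% to 1.14% in PEI-SWNTs samples and 1.96% to 2.17% in SWNTs samples. With glmTreat, which tests against a 2-fold difference and not against 0, 253 genes were higher and 50 lower. Without PEI-SWNTs replicate 5, 603 genes were lower at 2-fold.

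**Figure D1:**
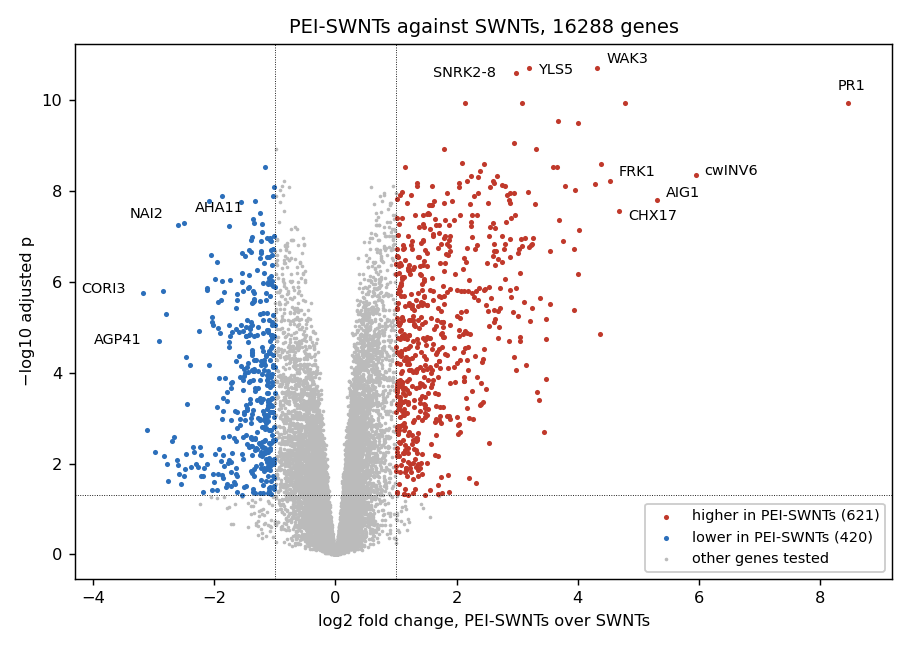
Log2 fold change of PEI-SWNTs over SWNTs (x axis) against −log10 of the adjusted p (y axis) for the 16288 genes tested. Each point is a gene. The 621 red genes are higher and the 420 blue genes lower at 2-fold, dotted lines mark the thresholds, and PR1 stands farthest to the right at 8.47.

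The gene that rose most was PR1, the standard marker of salicylic acid signalling. It had 68.7, 83.7, 67.0, 114.6 and 64.9 CPM in PEI-SWNTs replicates 1 to 5, against 0.0562, 0.165, 0.241, 0.393 and 0.253 CPM in SWNTs replicates 1 to 5. The SWNTs values rest on 1 to 6 counts per sample and the PEI-SWNTs values on 894 to 2140, and the log2 fold change was 8.47 ± 0.43 (standard error, here and below unless stated, adjusted p = 1.15e-10). Next was cwINV6, a gene of the cell wall invertase family annotated as a fructan exohydrolase, with 17.9 ± 4.91 CPM in PEI-SWNTs leaves and 0.281 ± 0.102 CPM in SWNTs leaves (mean ± SD, n = 5 each). Its log2 fold change was 5.95 ± 0.41 (adjusted p = 4.4e-09). AIG1, a GTPase gene first known from the recognition of a bacterial effector, reached 232.8 to 318.8 CPM in PEI-SWNTs samples (median 299.4) against 5.22 to 11.0 CPM in SWNTs samples, a log2 fold change of 5.30 ± 0.41 (adjusted p = 1.61e-08). All 3 genes were high in each PEI-SWNTs sample and low in each SWNTs sample. The largest rises and falls were ranked only among genes whose samples do not overlap, so such separation is part of the choice.

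The other leading genes included kinases of the cell surface and an ion exchanger. FRK1 encodes a receptor-like kinase whose transcript is induced by bacterial flagellin. It had 59.5, 57.2, 71.0, 45.6 and 40.2 CPM in PEI-SWNTs samples and 3.54, 1.54, 3.68, 2.29 and 0.969 CPM in SWNTs samples, with a log2 fold change of 4.53 ± 0.32 (adjusted p = 6.04e-09). WAK3, a wall-associated kinase, had 55.1 to 69.6 CPM in PEI-SWNTs samples and 2.11 to 4.39 CPM in SWNTs samples (4.32 ± 0.19, adjusted p = 1.98e-11). In WAK3, 10.8% of 100-base exon windows also occur elsewhere in the genome, so its counts may include reads of relatives. CHX17, a cation and proton exchanger, had 8.85 to 19.4 CPM in PEI-SWNTs samples and 0.169 to 1.01 CPM in SWNTs samples, a difference of 4.68 ± 0.38 (adjusted p = 2.81e-08). The sample ranges of both groups were apart in each of these genes by the rule that chose them.

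The remaining genes among the 10 largest rises had log2 fold changes of 4.28 to 4.78. They were AT3G28510, which encodes a P-loop nucleoside triphosphate hydrolase (4.78 ± 0.25), YLS9, of the late embryogenesis abundant hydroxyproline-rich family (4.39 ± 0.28), AT2G05510, a glycine-rich protein gene (4.36 ± 0.61), and AT4G18253, annotated as a receptor kinase-like gene (4.28 ± 0.31). The smallest adjusted p among the higher genes belonged to YLS5 (3.20 ± 0.14, adjusted p = 1.98e-11), WAK3, SNRK2-8 (2.98 ± 0.14, adjusted p = 2.51e-11), PR1 and RLP42 (2.13 ± 0.11, adjusted p = 1.15e-10). YLS5 is annotated as a glutamine amidotransferase-like gene, SNRK2-8 as a protein kinase gene and RLP42 as a receptor-like protein, 13.5% of which is shared with other places in the genome. YLS5 was also well expressed in SWNTs leaves, with 108.5 to 173.4 CPM in PEI-SWNTs samples and 13.9 to 18.8 CPM in SWNTs samples.

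**Figure D2:**
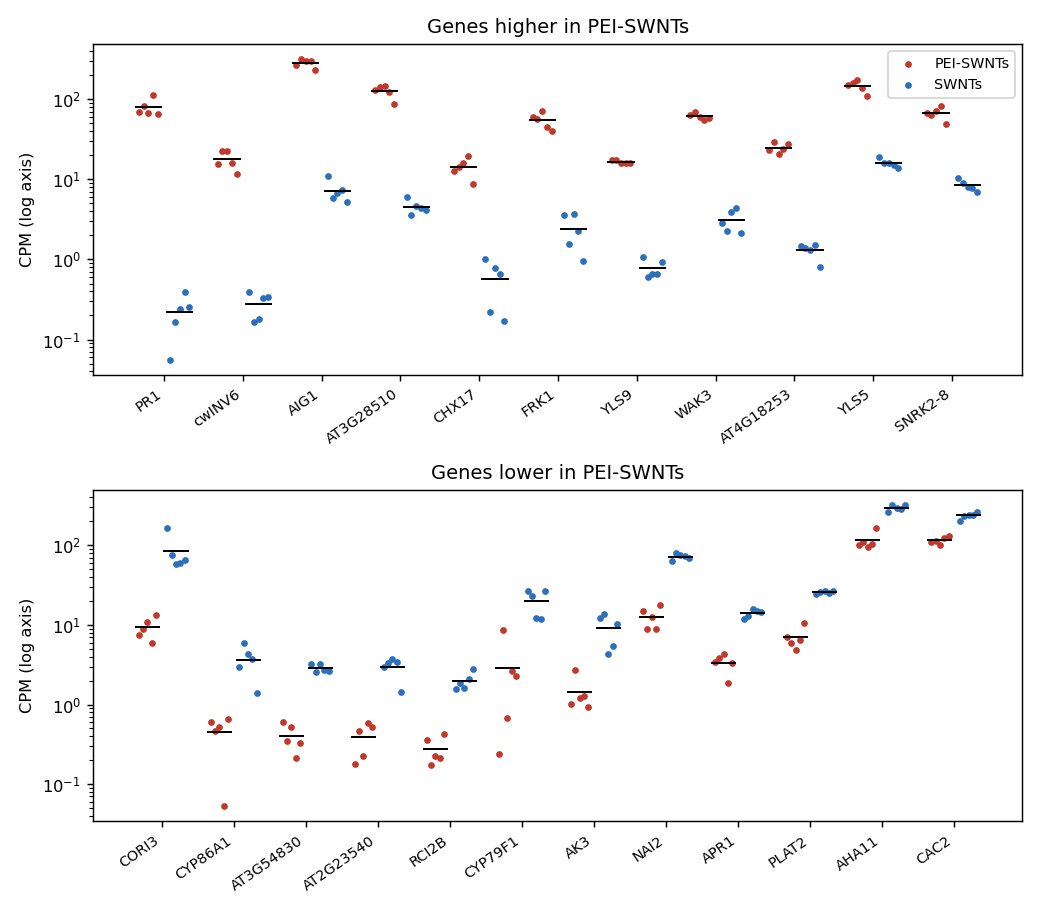
CPM on a log axis for genes higher (top) and lower (bottom) in PEI-SWNTs. Each point is 1 of 5 samples per group, red for PEI-SWNTs and blue for SWNTs, and each bar is the group mean. In the top panel PR1 has 64.9 to 114.6 CPM in PEI-SWNTs samples and 0.0562 to 0.393 CPM in SWNTs samples.

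The upstream 250 bases of FRK1 and YLS9, a pair of the leading genes, are shown because WRKY factors, many of which act in immunity, bind the W-box. The sequences are from the RefSeq annotation of TAIR10.1, read 5′ to 3′ on the strand of the gene and ending just before its annotated start. The FRK1 window lies at chr2:8329945-8330194 (minus strand) and the YLS9 window at chr2:15110242-15110491 (plus strand). Capitals mark TTGACC or TTGACT, or their reverse complement.
FRK1: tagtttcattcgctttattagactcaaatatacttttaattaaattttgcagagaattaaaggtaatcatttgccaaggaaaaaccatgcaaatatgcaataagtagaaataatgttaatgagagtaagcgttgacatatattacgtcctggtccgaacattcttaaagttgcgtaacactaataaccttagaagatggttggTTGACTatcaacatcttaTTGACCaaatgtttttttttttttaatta
YLS9: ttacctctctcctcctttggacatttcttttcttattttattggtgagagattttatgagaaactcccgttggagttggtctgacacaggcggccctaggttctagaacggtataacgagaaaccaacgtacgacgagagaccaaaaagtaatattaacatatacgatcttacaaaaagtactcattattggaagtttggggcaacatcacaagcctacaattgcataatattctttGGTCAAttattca
FRK1 has a pair of these W-boxes close to its start and YLS9 has 1. On either strand, TTGACC or TTGACT was in 44.28% of the 621 windows of genes higher at 2-fold, in 23.87% of the 419 windows of lower genes that have coordinates, and in 27.77% of the 16148 windows of all genes tested. The letters TGACG, which basic leucine zipper factors of the TGA type bind, were in 20.45%, 17.9% and 19.27% of the same windows. The G-box CACGTG was in 5.64%, 9.07% and 7.59%. A match is a description of the letters and not a site in use.

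Genes of salicylic acid synthesis and of the EDS1 node rose together. Of 9 members, all tested, 8 were higher at 2-fold and 0 lower (3.81% and 2.58% of all genes tested). The median log2 fold change was 1.79 (0.004 over all genes tested). PAD4, the lipase-like partner of EDS1, had 135.3, 146.6, 123.4, 121.5 and 109.0 CPM in PEI-SWNTs samples and 39.3, 32.1, 39.2, 38.6 and 34.4 CPM in SWNTs samples (1.79 ± 0.11, adjusted p = 1.17e-09). EDS1 rose by 1.51 ± 0.12 (adjusted p = 3.24e-08) and SAG101 by 1.05 ± 0.11 (adjusted p = 6.38e-07). ICS1, the isochorismate synthase that opens the pathway, averaged 51.8 ± 3.83 CPM in PEI-SWNTs leaves and 24.5 ± 4.51 CPM in SWNTs leaves (mean ± SD, n = 5 each), a rise of 1.08 ± 0.17 (adjusted p = 3.74e-05). EDS5, which exports isochorismate from the plastid, rose by 1.81 ± 0.19, and PBS3, which joins isochorismate to glutamate, by 2.63 ± 0.27. CBP60G and SARD1, transcription factors that act on ICS1, rose by 2.07 ± 0.26 and 1.83 ± 0.18, though 18.4% of the SARD1 exons overlap a gene on the other strand. EPS1, which acts after PBS3, did not pass (−0.22 ± 0.13, adjusted p = 0.172).

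Of the 9 genes listed for the pipecolate pathway and salicylate turnover, 4 passed the expression filter. At 2-fold, 3 of these were higher (3.81% of all genes tested). SARD4, an enzyme of pipecolic acid synthesis, rose by 1.78 ± 0.24 (adjusted p = 7.8e-06). DMR6 and DLO1, hydroxylases that inactivate salicylic acid, rose by 1.62 ± 0.24 and 2.62 ± 0.35 (adjusted p = 2.29e-05 and 7.46e-06). UGT74F2, which joins glucose to salicylic acid, was the tested member that did not pass, with 48.3 ± 7.65 CPM in PEI-SWNTs leaves and 48.2 ± 9.05 CPM in SWNTs leaves (0.00 ± 0.18, adjusted p = 0.999), and the sign of so small a value changed with the processing. DMR6 was abundant, with 301.1 ± 22.0 CPM in PEI-SWNTs leaves against 98.1 ± 4.52 CPM in SWNTs leaves (mean ± SD, n = 5 each). ALD1 and FMO1, other steps of the pipecolate pathway, were below the filter, with 1 to 5 and 18 to 34 counts per PEI-SWNTs sample and 1 to 51 and 5 to 49 counts per SWNTs sample, and these ranges overlapped.

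In the list of salicylate perception and outputs, 7 of the 10 members tested (of 13 listed) rose, 4 of them at 2-fold. The shares of all genes tested were 22.3% and 3.81%, and the list's median was 0.85. PR1 stood far from the rest. PR5, a thaumatin-like protein, averaged 46.9 ± 6.57 CPM in PEI-SWNTs leaves and 17.8 ± 5.85 CPM in SWNTs leaves (mean ± SD, n = 5 each), a log2 fold change of 1.40 ± 0.25 (adjusted p = 1.68e-04). PR2, a beta-1,3-glucanase, rose by 1.3 ± 0.26 (adjusted p = 5.69e-04) and NIMIN2, an NPR1-interacting repressor, by 1.29 ± 0.28 (adjusted p = 0.00119). NPR1 rose by 0.76 ± 0.08, the salicylic acid receptor gene NPR4 by 0.61 ± 0.15 and WRKY70, a regulator of salicylate and jasmonate outputs, by 0.95 ± 0.20. PR2 and PR5 were thus much closer between the treatments than PR1 was. Between SWNTs and water, which shares the SWNTs samples, PR2 and PR5 had log2 fold changes of 2.11 ± 0.26 and 1.37 ± 0.26, and PR1 one of −0.50.

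Cell surface receptors and kinases also rose. Of 17 members tested (of 18), 12 were higher and 2 lower at an adjusted p under 0.05 (22.3% and 19.0% of all genes tested). At 2-fold, 7 of them were higher (3.81% of all genes tested), and the median was 0.88. RLP23, the receptor-like protein for a peptide found in many microbes, averaged 83.9 ± 14.6 CPM in PEI-SWNTs leaves and 16.4 ± 2.14 CPM in SWNTs leaves (mean ± SD, n = 5 each), a rise of 2.35 ± 0.16 (adjusted p = 4.87e-09). SOBIR1, its kinase partner, rose by 1.06 ± 0.24 and EFR, the receptor of a bacterial elongation factor, by 1.39 ± 0.15. WAK1 and WAK2 rose by 1.74 ± 0.22 and 1.09 ± 0.12. In SOBIR1 and WAK2, 32.0% and 27.7% of the exons lie opposite another gene. The co-receptor BAK1 rose by 0.42 ± 0.06 and the cytoplasmic kinase BIK1 by 0.96 ± 0.15. FLS2, the flagellin receptor, did not pass, with 47.6 ± 2.86 CPM in PEI-SWNTs leaves and 49.3 ± 4.45 CPM in SWNTs leaves (−0.05 ± 0.12, adjusted p = 0.776), nor did the NADPH oxidase RBOHD (−0.13 ± 0.25, adjusted p = 0.711). RBOHF was lower by a log2 fold change of −0.27 ± 0.09 (adjusted p = 0.0173), and PEPR1, a receptor of endogenous danger peptides, by −0.71 ± 0.25 (adjusted p = 0.0306). PEPR1 no longer passed without PEI-SWNTs replicate 1, 3 or 4 (adjusted p = 0.053, 0.0731 and 0.072).

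The branch from chorismate to tryptophan and camalexin, the main antimicrobial indole of Arabidopsis, had risen genes in both its tryptophan and its camalexin part. Of 14 members, all tested, 9 were higher and 1 lower (22.3% and 19.0% of all genes tested). At 2-fold, 5 of them were higher (3.81% of all genes tested), and the median was 0.89. TSA1, the alpha subunit of tryptophan synthase, had 82.4, 89.3, 112.3, 77.9 and 63.5 CPM in PEI-SWNTs samples and 18.9, 16.3, 18.1, 19.4 and 18.2 CPM in SWNTs samples (2.22 ± 0.18, adjusted p = 1.93e-08). PAT1 (also TRP1), the anthranilate phosphoribosyltransferase, rose by 1.72 ± 0.15, with 14.3% of its exons opposite another gene, and AT2G04400, an aldolase-type TIM barrel protein of this list, by 1.44 ± 0.14. Anthranilate synthase subunits ASB1 and ASA1 rose by 1.48 ± 0.20 and 0.87 ± 0.22, and TSB1 by 0.74 ± 0.07. ASB1 shares 27.5% of its windows with another place in the genome. PAI1, of which 45.9% is shared, was lower at −0.56 ± 0.13 on the log2 scale. CYP79B2, which turns tryptophan into an aldoxime, rose by 0.99 ± 0.23, and PAD3, which makes camalexin, had 6.48 to 8.57 CPM in PEI-SWNTs samples against 0.165 to 1.87 CPM in SWNTs samples (3.37 ± 0.65, adjusted p = 4.03e-04).

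**Figure D3:**
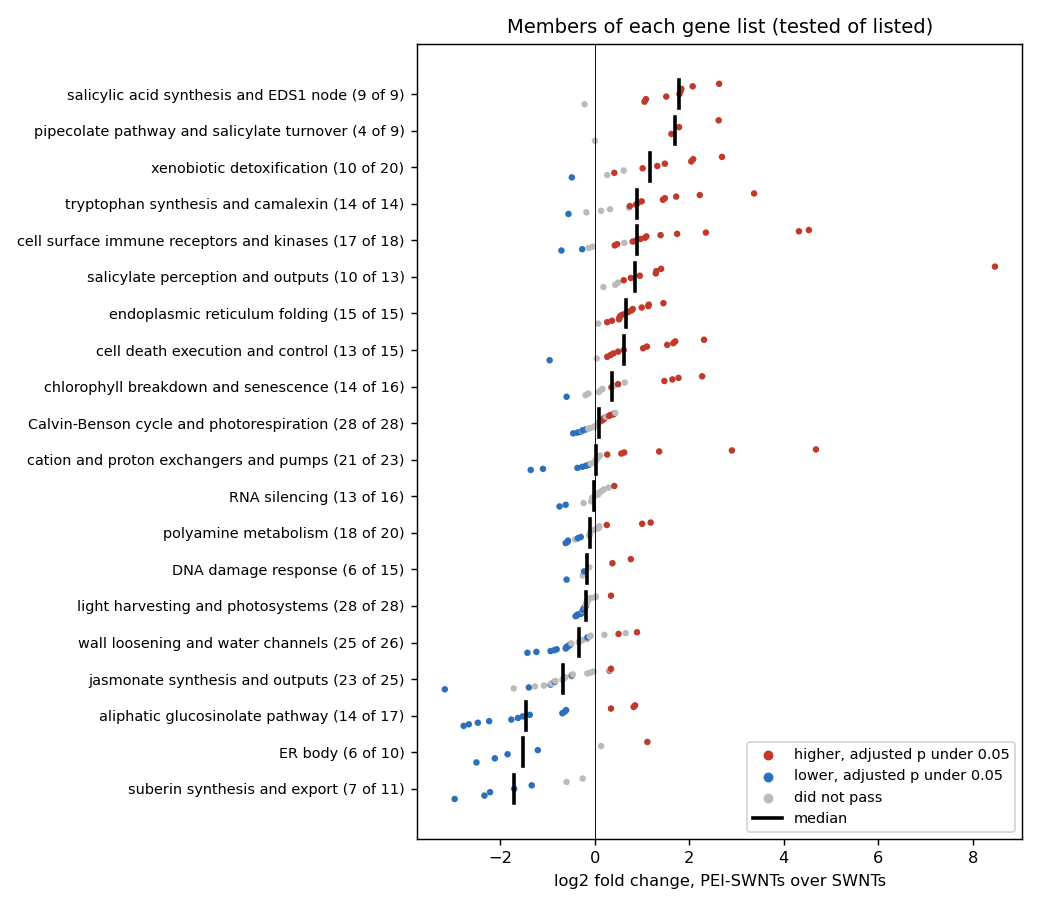
Log2 fold change of PEI-SWNTs over SWNTs (x axis) for the tested members of each gene list (rows, with members tested of members listed). Red points rose and blue points fell at an adjusted p under 0.05, grey points did not pass, and black bars are medians, from 1.79 for salicylic acid synthesis down to −1.71 for suberin, a list chosen after its values were seen.

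Among the members tested, genes of detoxification, cell death and protein folding were higher more often than lower. The shares of all genes tested were 22.3% higher and 19.0% lower. Of 20 listed detoxification genes, 10 passed the filter, and 7 of these rose and 1 fell, with a median of 1.16. The others were below it, with overlapping counts. CYP81D11 and UGT74E2 had 1 to 6 and 6 to 12 counts per PEI-SWNTs sample, and 1 to 77 and 1 to 67 per SWNTs sample. Of the genes below the filter, only UGT73C1 had its highest count in a PEI-SWNTs sample (1 against 0). The glutathione transferase GSTF7 rose by 2.69 ± 0.34, with 114.8 to 150.8 CPM in PEI-SWNTs samples and 9.86 to 33.8 CPM in SWNTs samples. GSTF6 and GSTU10 rose by 2.04 ± 0.29 and 2.08 ± 0.13, and the glycosyltransferase gene UGT73B5 by 1.48 ± 0.29. OPR1, an oxophytodienoate reductase of the group that is not needed for jasmonate, was lower at −0.49 ± 0.19 (adjusted p = 0.0429). It lost this call when any of PEI-SWNTs replicates 3 and 4 or SWNTs replicates 1, 3 and 4 was left out (adjusted p = 0.0614 to 0.12). Among cell death genes, 11 of 13 tested (of 15) rose and 1 fell. The metacaspase MC2 had 25.1, 29.2, 33.2, 25.5 and 19.6 CPM in PEI-SWNTs samples and 5.17, 4.89, 5.91, 6.29 and 4.47 CPM in SWNTs samples (2.31 ± 0.22, adjusted p = 1.86e-07). ACD6 rose by 1.66 ± 0.23, the helper immune receptor ADR1 by 1.53 ± 0.13, the cell death suppressor BI1 by 1.1 ± 0.08 and gammaVPE, a vacuolar protease, by 1.02 ± 0.28. Genes that promote and genes that restrain cell death were thus both among those that rose. MC9, a metacaspase of xylem, was lower at −0.96 ± 0.36 (adjusted p = 0.0408), and lost this call without PEI-SWNTs replicate 1, 3 or 4 or SWNTs replicate 1, 2 or 5 (adjusted p = 0.059 to 0.0956).

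Endoplasmic reticulum folding genes moved by small but regular amounts. All 15 members were tested, and 14 rose, 3 of them at 2-fold (22.3% and 3.81% of all genes tested). The median was 0.65. CRT3, the calreticulin that folds EFR, averaged 361.6 ± 52.7 CPM in PEI-SWNTs leaves and 132.6 ± 9.61 CPM in SWNTs leaves (mean ± SD, n = 5 each), a rise of 1.45 ± 0.13 (adjusted p = 5.44e-08). The disulfide isomerase PDIL1-2 rose by 1.13 ± 0.11 and the chaperone BIP2, 10.2% of which is shared with other genes, by 0.99 ± 0.15, and CRT1 was the member that did not pass (0.07 ± 0.10, adjusted p = 0.587). BIP3 had 6.02 to 10.9 CPM in PEI-SWNTs samples and 2.61 to 5.97 CPM in SWNTs samples (1.14 ± 0.42, adjusted p = 0.0366). DESeq2 gave BIP3 an adjusted p of 0.052, and without any 1 of 7 of the 10 libraries (PEI-SWNTs replicates 2, 3 and 4 and SWNTs replicates 1, 2, 4 and 5) it was 0.0501 to 0.0933. Chlorophyll breakdown and senescence had 6 of 14 tested members (of 16) higher and 1 lower (22.3% and 19.0% of all genes tested). The median was 0.37. SAG13 rose by 2.27 ± 0.49, SAG21 by 1.77 ± 0.26, the STAY-GREEN-like gene SGR2 by 1.64 ± 0.45 and WRKY6 by 1.47 ± 0.23, whereas NAP, a senescence transcription factor, was lower at −0.60 ± 0.20 (adjusted p = 0.0201). SAG12, the common marker of late senescence, had 0 counts in all 10 samples.

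Cation and proton transporter genes and polyamine genes were called about as often as genes at large, of which 22.3% were higher and 19.0% lower, so their counts are not a result about these lists. Of 21 transporter genes tested (of 23), 6 were higher and 6 lower, with a median of 0.03. After CHX17, CAX3, a vacuolar calcium and proton exchanger, rose most, with 62.7 to 111.7 CPM in PEI-SWNTs samples and 5.88 to 19.8 CPM in SWNTs samples (2.90 ± 0.35, adjusted p = 2.18e-06). CHX16 rose by 1.36 ± 0.40. AHA11, a plasma membrane proton pump, had 100.8, 110.7, 94.4, 105.3 and 167.4 CPM in PEI-SWNTs samples and 264.5, 317.3, 297.9, 289.3 and 318.9 CPM in SWNTs samples (−1.36 ± 0.12, adjusted p = 4.12e-08). NHX2, a vacuolar sodium and potassium exchanger, was lower at −1.10 ± 0.11. Of 18 polyamine genes tested (of 20), 3 were higher and 5 lower, with a median of −0.10. The spermine synthase gene SPMS (annotated as SPDS3) rose by 1.18 ± 0.21 and the copper amine oxidase CuAO1 by 1.00 ± 0.21. The spermidine synthase SPDS2 fell by 0.58 ± 0.09 on the log2 scale, the polyamine oxidase PAO5 by 0.62 ± 0.10 and the arginine decarboxylase ADC1 by 0.30 ± 0.10.

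The largest falls were smaller on the log2 scale than the largest rises. CORI3, a cystine lyase induced by the jasmonate mimic coronatine, had 7.56, 8.89, 10.9, 5.94 and 13.2 CPM in PEI-SWNTs samples and 163.0, 76.0, 58.5, 60.4 and 65.5 CPM in SWNTs samples. Its log2 fold change of −3.18 ± 0.37 (adjusted p = 1.78e-06) was the largest fall named here. AT3G22275, which encodes a jasmonate ZIM-domain protein, had 0 to 14 counts per PEI-SWNTs sample and 17 to 50 counts per SWNTs sample (−3.10 ± 0.71, adjusted p = 0.00178). AGP41, an arabinogalactan protein, had 0.0535 to 0.988 CPM in PEI-SWNTs samples and 2.14 to 3.90 CPM in SWNTs samples (−2.92 ± 0.42, adjusted p = 1.96e-05). AT3G54830, an amino acid transporter family gene, had 0.214 to 0.595 CPM in PEI-SWNTs samples and 2.58 to 3.26 CPM in SWNTs samples (−2.85 ± 0.33, adjusted p = 1.61e-06). Like the rises, these genes were chosen among those whose samples do not overlap.

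CYP86A1 and CYP79F1, given below with their pathways, were also among the 10 largest falls, at −2.97 and −2.78. The others were RCI2B, a small low temperature and salt responsive protein (−2.80 ± 0.36), the GDSL lipase gene AT2G23540 (−2.84 ± 0.78), AK3, an aspartate kinase (−2.69 ± 0.67), and AT5G09480, a hydroxyproline-rich glycoprotein gene (−2.76 ± 0.94, adjusted p = 0.0247). AT5G09480 lost its call without PEI-SWNTs replicate 1 or 4 or SWNTs replicate 2 (adjusted p = 0.05, 0.0546 and 0.07). Of the AK3 exons, 49.7% lie opposite another gene, and reads of such pairs cannot be told apart if counting ignored strand. The lower genes with the smallest adjusted p changed less and were more abundant. BES1, a transcription factor of brassinosteroid signalling, averaged 176.1 ± 8.21 CPM in PEI-SWNTs leaves and 354.5 ± 23.2 CPM in SWNTs leaves (mean ± SD, n = 5 each), a difference of −1.01 ± 0.07 (adjusted p = 8.27e-09), with 33.6% of its exons overlapped on the other strand. CAC2, the biotin carboxylase of plastid fatty acid synthesis, differed by −1.03 ± 0.08 and APR1, which reduces activated sulfate, by −2.09 ± 0.16. AT1G15410, an aspartate-glutamate racemase family gene (−1.16 ± 0.08), and PLAT2, of the lipase/lipoxygenase PLAT family (−1.87 ± 0.14), were the others.

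Transcripts of aliphatic glucosinolate synthesis and of ER bodies were lower more often than higher, and the stores themselves were not measured. All 14 tested members of the aliphatic glucosinolate list (of 17) passed at an adjusted p under 0.05, 11 of them lower and 3 higher. The shares of all genes tested were 19.0% lower and 22.3% higher. At 2-fold, 8 members were lower (2.58% of all genes tested), and the median was −1.46. CYP79F1, the first committed enzyme of the core pathway, had 0.238, 8.55, 0.675, 2.62 and 2.26 CPM in PEI-SWNTs samples and 27.0, 22.8, 12.1, 11.8 and 26.7 CPM in SWNTs samples (−2.78 ± 0.81, adjusted p = 0.00997). The transcription factors MYB29 and MYB28 were lower at −2.48 ± 0.39 and −0.61 ± 0.12, the plastid transporter BAT5 by −2.24 ± 0.58 and CYP83A1, which acts after CYP79F1, by −1.63 ± 0.34. SUR1, a lyase shared with indole glucosinolates, rose by 0.85 ± 0.11. Water infiltration, a comparison with no sample in common, had a median of −1.52 over the same 14 genes, and non-infiltrated leaves had 33.8 to 79.5 CPM of CYP79F1. Between SWNTs and water, which shares the SWNTs samples, their median was 0.38, so the fall is relative to SWNTs leaves.

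Of the 6 ER body genes tested (of 10), 4 were lower at 2-fold and 1 higher (2.58% and 3.81% of all genes tested). The median was −1.53. NAI2, needed to form ER bodies, had 15.1, 8.78, 12.7, 8.78 and 18.0 CPM in PEI-SWNTs samples and 63.7, 80.4, 74.9, 73.2 and 68.8 CPM in SWNTs samples (−2.51 ± 0.22, adjusted p = 5.17e-08). BGLU18, the beta-glucosidase of leaf ER bodies, had 12.2, 15.1, 16.1, 10.4 and 72.8 CPM in PEI-SWNTs samples and 87.3 to 153.1 CPM in SWNTs samples (−2.12 ± 0.62, adjusted p = 0.01). PEI-SWNTs replicate 5 stood well above the other samples of its group in BGLU18. The neighbouring gene AT1G52410, which encodes TSK-associating protein 1, differed by −1.85 ± 0.51 and the lectin PBP1 by −1.21 ± 0.30, whereas MEB1, an ER body membrane protein, rose by 1.11 ± 0.27. Myrosin cell markers moved in the same direction, with 3 of 3 lower (19.0% of all genes tested) and a median of −0.54. Their summed levels were 612.1 to 1090.9 CPM in PEI-SWNTs samples against 989.8 to 1330.0 CPM in SWNTs samples, and their part in these results was not tested. In bulk leaf samples, fewer cells of a type and less RNA per cell cannot be told apart.

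The jasmonate list had a negative median, but few of its members passed the test. Between SWNTs and water, which shares the SWNTs samples, its median was 0.84, and for water over non-infiltrated leaves it was −0.76. The negative median is relative to SWNTs leaves, and a value of PEI-SWNTs over water is not given for this list. Of 23 members tested (of 25), 2 were higher and 5 lower, 2 lower at 2-fold, and 16 did not pass, with a median of −0.68. Over all genes tested, 22.3% were higher and 19.0% lower, so the count of lower members is not a result about this list. Besides CORI3, the allene oxide cyclase AOC1 was lower at −1.40 ± 0.30 (adjusted p = 0.001) and the allene oxide synthase AOS by −0.94 ± 0.26 (adjusted p = 0.00696), with 228.7 ± 81.9 CPM in PEI-SWNTs leaves and 438.1 ± 91.3 CPM in SWNTs leaves (mean ± SD, n = 5 each). VSP2, a classic jasmonate output, had a log2 fold change of −1.72 with a standard error of 1.08 and did not pass (adjusted p = 0.212). PEI-SWNTs replicate 5 had 40.0 CPM of VSP2 and the other PEI-SWNTs samples 1.37 to 8.32 CPM, and without replicate 5 the log2 fold change was −3.42 (adjusted p = 0.0286). COI1, the jasmonate receptor, rose by 0.31 ± 0.08 and the transcription factor MYC3 by 0.34 ± 0.07. MYC2, a transcription factor of the same list, had 0 counts in every nanotube sample and was not tested, so its level is not known here.

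Photosynthesis genes differed by less than 2-fold. Of 28 light harvesting and photosystem genes, all tested, 13 were lower and 1 higher, with 0 past 2-fold in either direction and a median of −0.20. The photosystem subunit PSAH2, with 24.8% of its exons opposite another gene, was lower at −0.41 ± 0.09 and the oxygen-evolving protein PSBO2 higher by 0.34 ± 0.09. Of 28 Calvin-Benson and photorespiration genes, 9 were higher and 5 lower, again with 0 past 2-fold and a median of 0.08. With 22.3% of all genes tested higher and 19.0% lower, the Calvin-Benson counts are not read as a result about that list. RCA, Rubisco activase, rose by 0.40 ± 0.10 and the Rubisco small subunit RBCS2B was lower at −0.46 ± 0.14. Among genes of wall loosening and water channels, 12 of 25 tested (of 26) were lower and 2 higher, with a median of −0.34. XTH6 and XTH7, wall-remodelling transglucosylases, were lower at −1.43 ± 0.16 and −1.24 ± 0.27, the aquaporins PIP1;5 and PIP2;6 by −0.86 ± 0.09 and −0.81 ± 0.12, and the expansin EXPA4 by −0.94 ± 0.25. The expansin EXPA8 rose by 0.89 ± 0.27 (adjusted p = 0.0138), and without PEI-SWNTs replicate 4 its adjusted p was 0.0534.

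The calls were then set beside the response to water infiltration itself, which 5 water samples and 5 non-infiltrated samples measure without sharing a sample. Water infiltration raised 425 genes and lowered 310 at 2-fold (2.61% and 1.90% of the genes tested). Of the 621 genes higher in PEI-SWNTs, 213 were also raised by water (34.3% of the higher genes and 50.1% of the genes raised by water) and 10 were lowered by it. Of the 420 lower genes, 65 were also lowered by water (15.5% and 21.0%) and 29 were raised by it (6.90% and 6.82%). Across the 16288 genes, Pearson's r between the log2 fold changes of both comparisons was 0.32 and Spearman's rho 0.18, over genes, which are not independent replicates. For the 621 higher genes the median log2 fold change was 1.5 for PEI-SWNTs over SWNTs, and 0.68 for water over non-infiltrated leaves. For the 420 lower genes the medians were −1.32 and −0.11.

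**Figure D4:**
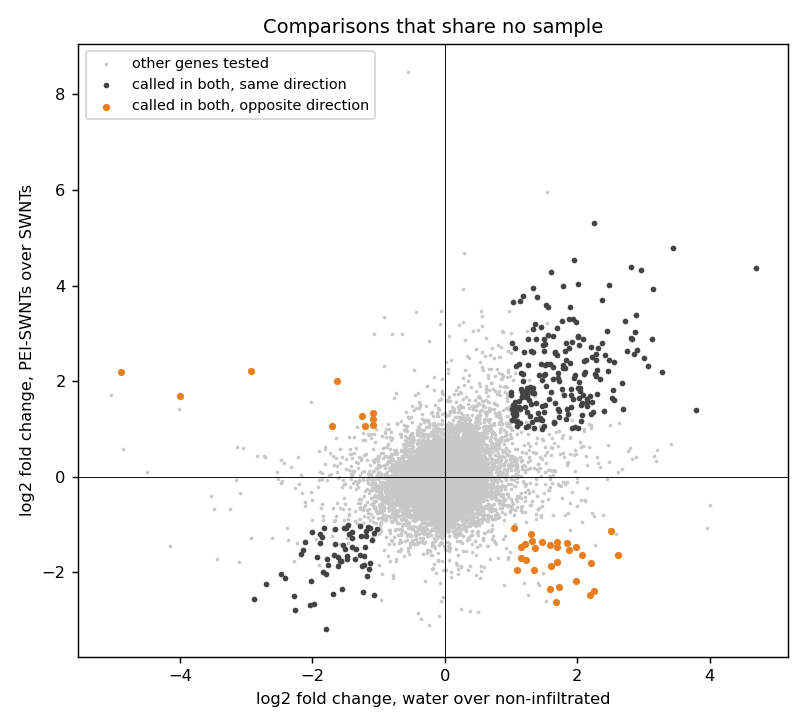
Log2 fold change of water over non-infiltrated leaves (x axis) against that of PEI-SWNTs over SWNTs (y axis), which share no sample, for the 16288 genes tested. Dark points are called at 2-fold in both comparisons in the same direction (213 higher, 65 lower) and orange points in opposite directions (10 and 29).

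Genes that moved against the water response were looked at one by one. Of the 10 genes higher in PEI-SWNTs but lowered by water, the largest rises among those with separated samples were TPX2, a thioredoxin-dependent peroxidase (2.21 ± 0.47, against −2.92 for water), AT2G25625 (2.01 ± 0.43, against −1.63), TCL2, of the homeodomain-like family (1.27 ± 0.32, against −1.25), AT5G06330, a late embryogenesis abundant family gene (1.21 ± 0.20, against −1.09), and AT1G20490, of the AMP-dependent ligase family (1.09 ± 0.17, against −1.08). TPX2 had 4.57 to 16.5 CPM in PEI-SWNTs samples and 0.969 to 4.04 CPM in SWNTs samples, and 76.0% of its exons lie opposite another gene.

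The genes lower in PEI-SWNTs but raised by water included several of the lignin and suberin barrier. LAC12, a laccase of the family that polymerizes lignin, had 0.417, 0.401, 0.375, 0.214 and 0.659 CPM in PEI-SWNTs samples and 4.50, 1.32, 2.05, 2.75 and 1.31 CPM in SWNTs samples (−2.48 ± 0.76, adjusted p = 0.0133). GPAT5, an acyltransferase of suberin synthesis, had 1.19, 0.746, 0.825, 0.0535 and 0.612 CPM in PEI-SWNTs samples and 4.89, 3.13, 3.38, 4.06 and 1.77 CPM in SWNTs samples (−2.34 ± 0.63, adjusted p = 0.00567). Both were ranked among genes whose PEI-SWNTs samples all lay below the SWNTs samples, so that separation is part of the choice. The other 3 of the 5 largest were AT5G13900, a lipid-transfer protein family gene (−2.62 ± 0.74), AT2G41810, of the DUF642 family (−2.39 ± 0.72), and AT4G36610, of the alpha/beta hydrolases (−2.31 ± 0.68). LAC5 (−2.18 ± 0.66), the dirigent-like gene DIR6 (−1.95 ± 0.39) and RWP1, a feruloyltransferase of suberin (−1.71 ± 0.46), belonged to the same 29 genes and were chosen after their values were seen. For water over non-infiltrated leaves, the log2 fold changes were 2.19 for LAC12, 1.58 for GPAT5, 1.98 for LAC5, 1.35 for DIR6 and 1.15 for RWP1.

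A list of 11 suberin synthesis and export genes was drawn up after these values were seen, so its counts are a description. Of the 7 that passed the filter, 5 were lower at 2-fold (2.58% of all genes tested), 0 were higher, and the median was −1.71. CYP86A1, a fatty acid hydroxylase, had 0.595, 0.459, 0.525, 0.0535 and 0.659 CPM in PEI-SWNTs samples and 2.92, 5.88, 4.34, 3.73 and 1.39 CPM in SWNTs samples (−2.97 ± 0.79, adjusted p = 0.00549). The transporter ABCG6 differed by −2.22 ± 0.61 and the elongase KCS2, whose exons are overlapped over 63.6% on the other strand, by −1.34 ± 0.41. FAR1, a fatty acyl reductase, had −0.60 ± 0.38 (adjusted p = 0.216). These genes also varied strongly outside the nanotube groups. ABCG6 had 2.01 to 10.2 CPM in water samples, highest in replicate 1, and 0.248 to 7.67 CPM in non-infiltrated samples, highest in replicate 3 and lowest in replicate 4. The 29 genes became 18 without water replicate 1 and 45 without non-infiltrated replicate 3. Epidermis markers were lower as well, 4 of 5 (19.0% of all genes tested), led by the lipid-transfer protein LTP1 (−0.95 ± 0.14) and FDH, a cuticle elongase (−0.46 ± 0.06). Their median was −0.33, with summed levels of 1191.1 to 1428.7 CPM in PEI-SWNTs samples against 2005.9 to 2375.2 CPM in SWNTs samples. Among vascular markers, 1 of 5 tested was higher and 0 lower (22.3% and 19.0% of all genes tested). Their sums were 186.2 to 221.9 CPM in PEI-SWNTs samples and 183.0 to 201.6 CPM in SWNTs samples. The vascular median was −0.25, close to that of the epidermis markers, and 2 of 5 members were positive. Sums weigh the most abundant gene most, and the part of either cell type was not tested.

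**Figure D5:**
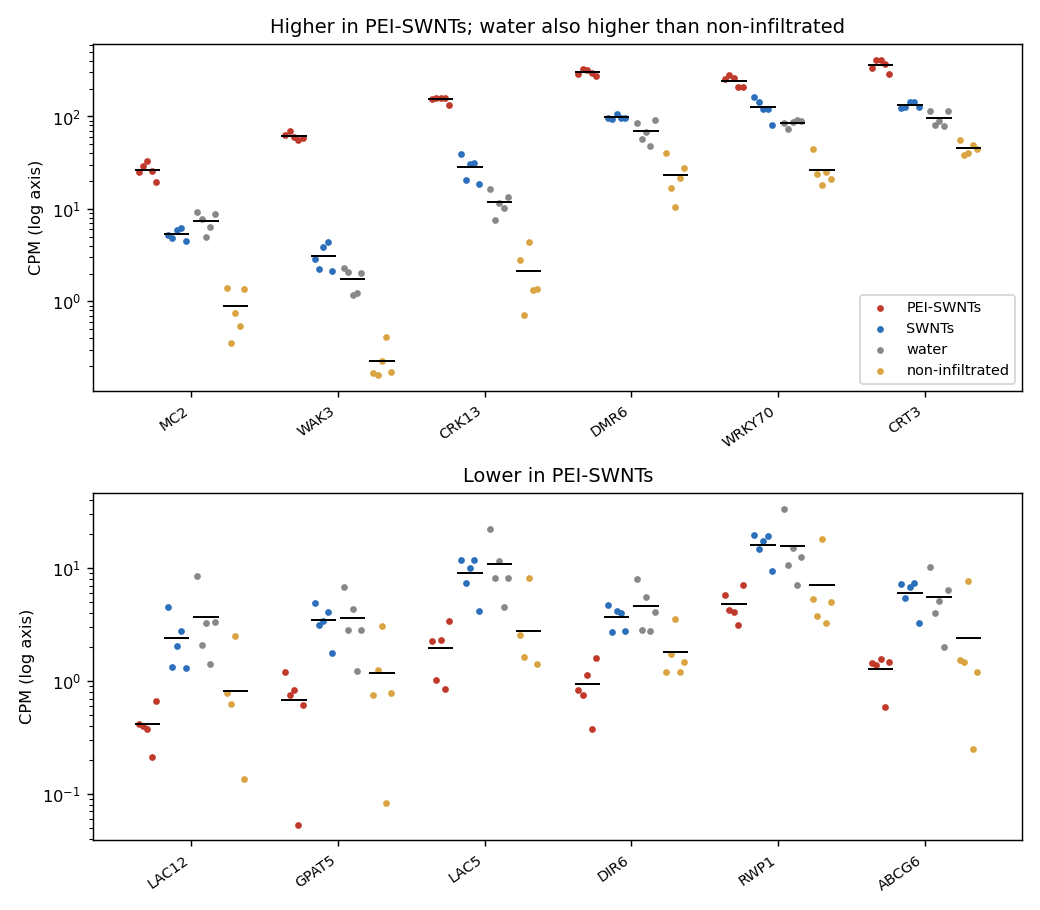
CPM on a log axis in all 4 groups for genes higher in PEI-SWNTs (top) and lignin or suberin genes lower in PEI-SWNTs (bottom). Each point is 1 of 5 samples per group and bars are group means. Non-infiltrated samples at 0 CPM (replicate 4 for LAC12 and LAC5) cannot be drawn, and PEI-SWNTs samples of ABCG6 lie between 0.589 and 1.57 CPM against 3.29 to 7.33 CPM for SWNTs.

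The study followed 12 marker genes by RT-qPCR. The 6 read out for PEI-SWNTs (PR1, CHX17, PAD3, AGP41, AT3G54830 and NAI2) were all called at 2-fold between PEI-SWNTs and SWNTs, with the values above. The study picked these 6 from this same sequencing for large changes particular to PEI-SWNTs, so their calls follow from the choice. The 6 read out for SWNTs differed less between both nanotube treatments. They came from clusters of genes that changed with SWNTs and with PEI-SWNTs, so this too follows from the choice. CRK11, a cysteine-rich receptor-like kinase, had 42.9 ± 4.94 CPM in PEI-SWNTs leaves and 27.8 ± 9.73 CPM in SWNTs leaves (mean ± SD, n = 5 each), a log2 fold change of 0.63 ± 0.22 (adjusted p = 0.0276). It lost this call without PEI-SWNTs replicate 2 or 5 or SWNTs replicate 2 or 5 (adjusted p = 0.0538 to 0.0869). The others did not pass, at 0.33 ± 0.25 for the chitinase family gene AT2G43620, −0.18 ± 0.41 for ERF011 (annotated as CEJ1, AT3G50260), 0.47 ± 0.30 for AT2G15020, 0.59 ± 0.26 for SPX1, a phosphate sensor, and 0.29 ± 0.23 for AT5G54130. SPX1 was just past the threshold in DESeq2 (adjusted p = 0.0438).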

How the data were processed

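Counts of reads per gene were analysed from 5 PEI-SWNTs, 5 SWNTs, 5 water and 5 non-infiltrated leaf samples. The authors trimmed reads with Trimmomatic, mapped them to TAIR10 with HISAT2 and deposited raw counts per gene from featureCounts 2.0.1 (version from the submitters' processing notes). Strand setting and the handling of multi-mapping reads are not given in the sources used here. A second deposited table holds log2 fold changes, p-values and other results of the authors' own edgeR 3.30.3 comparisons, and only its gene lengths were used.

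Genes passed the filter at an RPKM of 1 or more averaged over samples. Counts were scaled by TMM and fitted with glmQLFit (edgeR 4.0.16, limma 3.58.1, R 4.3.3), with 4 group means over 20 samples, and contrasts were tested with glmQLFTest and Benjamini-Hochberg adjustment over the genes tested. Genes were called at an adjusted p under 0.05, and at 2-fold where stated. Standard errors came from the fold change and the F statistic. The procedure was tested on simulated data. Tables and figures used Python 3.11.15, pandas 2.3.3, numpy 2.4.6 and matplotlib 3.10.9.

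The genes named were the 10 largest rises and falls whose samples do not overlap, with a mean of at least 1 CPM in the higher group, the 5 smallest adjusted p in each direction, the 5 largest in each direction against the water response, the largest rise and fall of each list, further list members described, and the study's RT-qPCR markers. The comparison, members and lists were chosen with earlier results of these data known, and the further list members were picked after their values were seen. Replicates came from different plants. Same-numbered samples of both groups did not deviate together (correlations of −0.02 to 0.118), so no pairing was used. Alternatives covered DESeq2 1.42.0, other scaling and filters, a fit of 10 samples, a replicate block, glmTreat, organelle genes, GC content and length, and leaving out each sample. Some promoter sequences are not reported here.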

Additional observations from a re-analysis of the deposited data

Results flagged for a closer look

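In each nanotube group, the 5 CPM values of every named gene were screened for a sample far from the other 4 by Dixon's criterion (critical value 0.71). Of 314 groups of values, 31 held such a sample, where chance flags about 1 in 20, and 10 of the 31 were PEI-SWNTs replicate 5 and 12 were SWNTs replicate 1.

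PEI-SWNTs replicate 5 lay on the SWNTs side of the other 4 samples of its group in all 10 of its genes. It had 0.659 CPM of AT3G22275 (0 to 0.119 in the other 4), 167.4 of AHA11 (94.4 to 110.7), 72.8 of BGLU18 (10.4 to 16.1), 14.2 of AT1G52410 (3.81 to 6.60) and 40.0 of VSP2 (1.37 to 8.32). It also had 776.9 CPM of PSAH2 (611.8 to 650.3) and 477.6 of RBCS2B (255.3 to 309.0). It was low in GSTF7 at 114.8 CPM (141.1 to 150.8), AGO2 at 33.2 (41.8 to 44.9) and CRK13 at 133.8 (156.1 to 159.2).

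SWNTs replicate 1 was the high sample of its group in all 12 of its genes. It had 163.0 CPM of CORI3 (58.5 to 76.0 in the other 4), 10.1 of PBS3 (3.3 to 4.32), 65.0 of CBP60G (32.1 to 41.2), 19.8 of CAX3 (5.88 to 9.89), 49.5 of SAG21 (16.0 to 21.3) and 15.3 of WRKY6 (4.68 to 7.17). The others were AT2G25625 at 2.14 CPM (0.495 to 0.885), UGT73B5 at 5.90 (1.90 to 3.03), KCS2 at 40.2 (18.4 to 22.9), UGT74F2 at 64.2 (42.1 to 45.9), FDH at 636.7 (530.6 to 551.7) and LTP1 at 1210.9 (932.5 to 1001.8).

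PEI-SWNTs replicate 2 stood high in CYP79F1 at 8.55 CPM (0.238 to 2.62 in the other 4), AK3 at 2.70 (0.941 to 1.28), EFR at 21.5 (16.5 to 17.0) and CAX3 at 111.7 (62.7 to 72.6). PEI-SWNTs replicate 4 stood low in ABCG6 at 0.589 CPM (1.38 to 1.57). SWNTs replicate 3 stood high in DMR6 at 106.1 CPM (95.0 to 96.8) and BIP3 at 5.97 (2.61 to 3.46). SWNTs replicate 5 stood low in AT4G18253 at 0.800 CPM (1.33 to 1.51) and high in NHX2 at 35.3 (31.7 to 32.7).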

How the results depend on the processing

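The 621 higher and 420 lower genes at 2-fold were 617 and 436 with DESeq2, and stayed within 1.5 times under RLE or library size scaling, edgeR's own expression filter, the 10 samples alone, legacy=FALSE, GC and length offsets, organelle genes left out, and SWNTs replicates 3 and 4 merged. With every gene of at least 1 count they were 958 and 696, and with glmTreat 253 and 50 (303 in either direction). The 29 lower genes that water raised were 48 with filterByExpr, 45 with every gene of at least 1 count, 31 with DESeq2 and 0 with glmTreat, and the 213 higher genes that water also raised were 30 with glmTreat. Leaving out 1 nanotube sample gave 561 to 657 higher genes, 380 to 603 lower genes and 5884 to 6958 at any fold. Leaving out any 1 sample, with water and non-infiltrated samples added after seeing the data, gave 182 to 228 and 18 to 45 for the genes shared with the water response. The replicate block gave 618 higher and 419 lower genes, and under the block OPR1 and MC9 had adjusted p = 0.0547.

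Higher genes were 54.1% of the calls at any fold, 48.5% in the fit of 10 samples and 83.5% with glmTreat. Of 145 named genes called, 97 lost the call under glmTreat and 7 when 1 nanotube library or another was left out, while VSP2 gained one. OPR1 also had adjusted p = 0.0682 with SWNTs replicates 3 and 4 merged, and FAR1 passed in the fit of 10 samples (adjusted p = 0.0499). UGT74F2 was the named gene that changed sign. Its value was 0.00, and it was −0.00 under RLE, −0.01 by library size, −0.02 with every gene or without organelle genes, and −0.03 with 10 samples or merged replicates. Leaving out 1 sample moved it between −0.11 and 0.10. The cause of these changes was not tested. Depth limits genes near 1 CPM, where a few counts set a value.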

Other observations

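Some genes called in one direction lay beside each other on the chromosomes. Of the 621 higher genes, 138 (22.22%) had a neighbour among the tested genes that was also higher at 2-fold, and of the 419 lower genes with coordinates, 44 (10.5%) had a lower neighbour. Of all 16149 tested genes with coordinates, 7.36% had a higher neighbour and 5.08% a lower one, and these shares are given as a description, with no test. Runs of 3 or more adjacent calls in one direction numbered 17. The longest held 5 genes at chr4:12145035-12160279 (TAIR10.1), among them the cysteine-rich receptor-like kinases CRK12, CRK13, CRK14 and CRK15, with log2 fold changes of 1.28 to 2.45. CRK36, CRK37 and CRK38 formed another at chr4:2231717-2244930, with 3.12 to 3.93, and AZI1 and EARLI1, lipid-transfer protein genes, lay in a run at chr4:7401087-7410406 with 1.4 to 2.61. Such neighbours are often duplicated genes with similar sequence, so their counts may be shared in part. In CRK13, 10.7% of the 100-base windows occur elsewhere.

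The nucleic acid cargoes also differed, and the lists for RNA silencing and DNA damage responses were measured for that reason. Of 13 silencing genes tested (of 16), 1 was higher and 2 lower with a median of −0.01. AGO2, an Argonaute of antiviral defence, rose by 0.41 ± 0.09, and AGO4 and RDR2, of RNA-directed DNA methylation, were lower at −0.75 ± 0.12 and −0.62 ± 0.14. Of 6 DNA damage genes tested (of 15), 2 were higher and 2 lower with a median of −0.17. Over all genes tested, 22.3% were higher and 19.0% lower, so the counts of both lists are not read as a result about them. The part of the cargo was not tested in these samples. SOG1, the master regulator of this response, rose by 0.76 ± 0.12 and TSO2, a ribonucleotide reductase subunit, was lower at −0.60 ± 0.11. Of 5 guard cell markers, 2 were lower, with sums of 41.7 to 45.3 CPM in PEI-SWNTs samples and 49.1 to 57.2 CPM in SWNTs samples.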
